A study of Mus musculus with 2 samples.

Results

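A set of 10 genes of the actin cytoskeleton was followed in Hepa1-6, a mouse hepatocellular carcinoma cell line whose strain the labels give as C57bl/6. They are the cytoplasmic actins Actb and Actg1, the Ena/VASP family (Enah, Vasp and Evl), the tropomyosin gene Tpm1, the myosin light chain gene Myl9, and Vcl, Flna and Cnn2, which encode vinculin, filamin A and calponin 2. The members were chosen by name from 52636 genes of the deposited count table, with their ratios between the libraries known, so their values are a description and no test is given for them. The study compared a line infected with a lentivirus for IRF8 overexpression (GFP and puromycin resistance) with a line infected with the vector control (GFP and puromycin resistance). Both lines were infected for 24 h and selected with 2 µg/ml puromycin, and IRF8 is an interferon regulatory factor best known in myeloid and B cells. The labels do not name the promoter of the transgene or say whether the lines were clones.

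The IRF8 group and the vector group are 1 library each (20042660 and 18118017 counted reads), so no difference has a replicate check. Irf8 itself had 1486 counts with IRF8 and 1010 with vector, a scaled ratio of 1.22 (95% counting interval 1.13 to 1.32). Whether reads of the transgene are counted under Irf8 cannot be told from the table, so this value does not show how much IRF8 the line made, and the name IRF8 follows the label. Of the hepatocyte markers, Hnf4a, Alb and Afp were counted in both libraries, at 180, 75.1 and 127 CPM for IRF8 and 333, 200.1 and 272 CPM for vector, while Ttr had 0 and 2 counts. Of 9 measured hepatocyte markers 0 were higher and 3 lower by the 2-fold size rule (summed level 3566 CPM for IRF8 and 5940 CPM for vector), and of 3 measured myeloid markers 0 were higher or lower (19.6 and 24.2 CPM), with Adgre1 at 0 counts in both. Of 7 endothelial markers only Vwf was measured, and it was lower (23 and 50 counts). By the same rule 4.27% of all measured genes were higher and 3.64% lower. All 9 measured hepatocyte markers had ratios below 1, and Apoe alone made 2901 and 4740 CPM of their list's summed level. Apoa1, under 1 CPM and so not measured, went the other way, with 15 counts with IRF8 and 3 with vector. The part of these marker levels in the results was not tested. CPM are counts per 1000000 reads of a library size scaled by TMM, a method that equalises the bulk of the genes. A gene was measured when the mean of both libraries reached 1 CPM, which 12468 genes did. It is called higher or lower when its ratio, IRF8 over vector, was at least 2 or at most 0.5 and the exact 95% interval of the ratio excluded 1. All intervals cover counting error only and say nothing of the spread between cultures. In RNA from a whole culture, more cells with a transcript and more transcript per cell cannot be told apart.

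Actin monomers assemble into filaments that drive protrusion and, with myosin II, contraction. Ena/VASP proteins sit at filament tips and at focal adhesions, where they bind actin and profilin and favour filament elongation. Serum response factor, SRF, binds the CArG box and works with MRTF cofactors (Mkl1 and Mkl2), which sense the pool of free actin and are linked to cytoskeletal genes, or with ternary complex factors (Elk1, Elk3 and Elk4), which are linked to immediate-early genes.

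To show where the sequence that SRF binds lies, the CArG box, which is CC, then 6 bases of A or T, then GG, was searched on both strands of RefSeq promoter windows (GRCm38.p6, from 250 bases before to 50 bases after an annotated start). Windows were given for 9 of the 10 members, 10 windows in all because Evl has 2 starts. Actb had no window, so its promoter was not searched. The box was found in 4 of them, those of Actg1, Cnn2, Myl9 and Vcl, and in 1.63% of all 32851 windows. Those stretches are shown 5′ to 3′ on the gene's strand with the box in capitals. They lie at chr11:120348551-120348610 (minus strand, Actg1), chr10:79988519-79988578 (plus strand, Cnn2), chr2:156775278-156775337 (plus strand, Myl9) and chr14:20929148-20929205 (plus strand, Vcl).
Actg1: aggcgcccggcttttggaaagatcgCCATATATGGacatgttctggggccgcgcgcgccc
Cnn2: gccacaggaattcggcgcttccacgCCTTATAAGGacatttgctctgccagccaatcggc
Myl9: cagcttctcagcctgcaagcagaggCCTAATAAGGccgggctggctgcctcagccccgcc
Vcl: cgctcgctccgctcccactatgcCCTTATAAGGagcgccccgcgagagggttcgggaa

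The boxes began 90 bases upstream of the annotated start in Actg1, 56 in Cnn2, 161 in Myl9 and 227 in Vcl. Cnn2 and Vcl share the same box letters. The window of Srf itself held 2 boxes, 82 and 62 bases upstream of its start. The window of Enah held none, and its 250 bases upstream of the start (chr1:182019981-182020230, minus strand) are shown because Enah is the member with the largest ratio, with each CG pair in capitals.
Enah: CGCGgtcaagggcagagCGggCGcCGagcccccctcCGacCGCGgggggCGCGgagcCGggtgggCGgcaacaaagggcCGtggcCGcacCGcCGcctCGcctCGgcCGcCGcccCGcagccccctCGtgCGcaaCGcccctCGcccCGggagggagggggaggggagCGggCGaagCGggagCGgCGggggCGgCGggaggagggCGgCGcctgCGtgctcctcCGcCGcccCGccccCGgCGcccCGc

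This stretch held 42 CG pairs and was 84.8% G or C, and the full Enah window, at 83.3%, was richer in G and C than 99.7% of all windows (median 52.7%). A pair of interferon regulatory factor motifs was also searched on both strands, GAAA followed after 2 bases by GAAA, and the same with GGAA in first place. Neither was found in a member's window, while 3.44% and 2.72% of all windows held them. A missing match says only that these letters are not in this window, and other starts of the members were not searched.

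**Figure D1:**
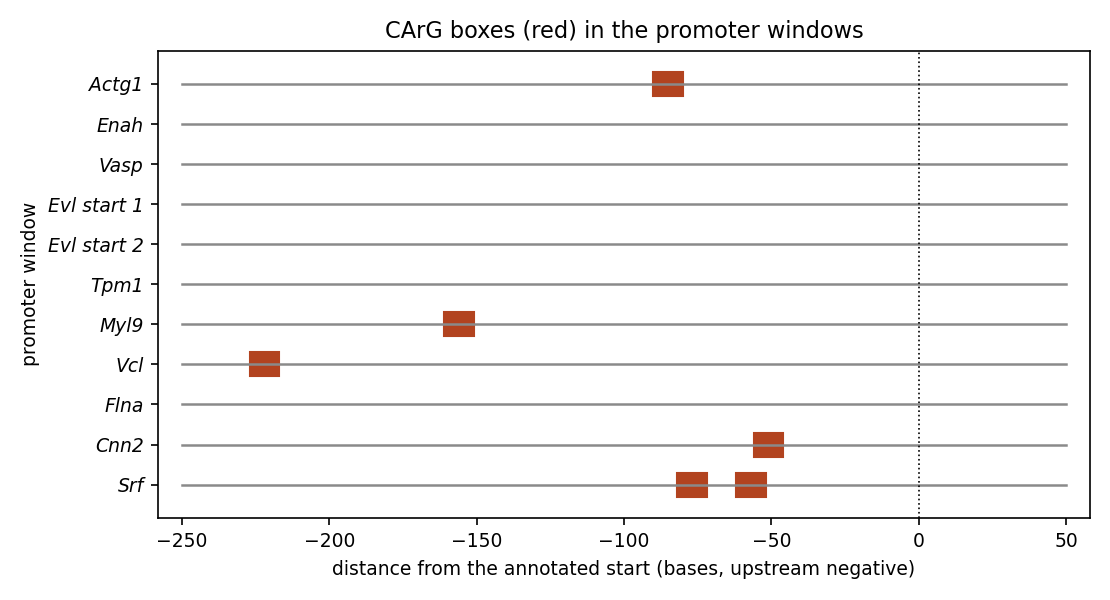
Position of each CArG box (red) in the promoter windows of 9 members and of Srf, in bases from the annotated start, with upstream positions negative. The members with a box are Actg1, Myl9, Vcl and Cnn2, and Srf holds 2. Actb had no window to search.

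Of the 10 members, 8 were measured and 2, Evl and Myl9, stayed below 1 CPM in both libraries. By the size rule 1 member, Enah, was higher, beside 4.27% of all measured genes, and 0 were lower, beside 3.64%. Of the calls over all genes 54.0% were higher ones, against 66.1% with scaling by total counts and 41.6% with the trend of the ratio on expression removed. The counting interval excluded 1 for 6 of the 8 measured members, 4 above 1 and 2 below, but the same held for 63.8% of all measured genes, since deep counts make narrow intervals. The median log2 ratio of the 8 was 0.06, against 0.01 for all measured genes. The members together took 0.497% of the counted reads with IRF8 and 0.452% with vector, with a scaled ratio of 1.01 (1.00 to 1.02). That sum mainly reflects Actb, Flna and Actg1, the members with the most counts. Apart from Enah, the measured members had ratios from 0.650 (Vasp) to 1.40 (Vcl), within the 2-fold limit. Enah lay farthest from 1 in every setting tried.

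**Figure D2:**
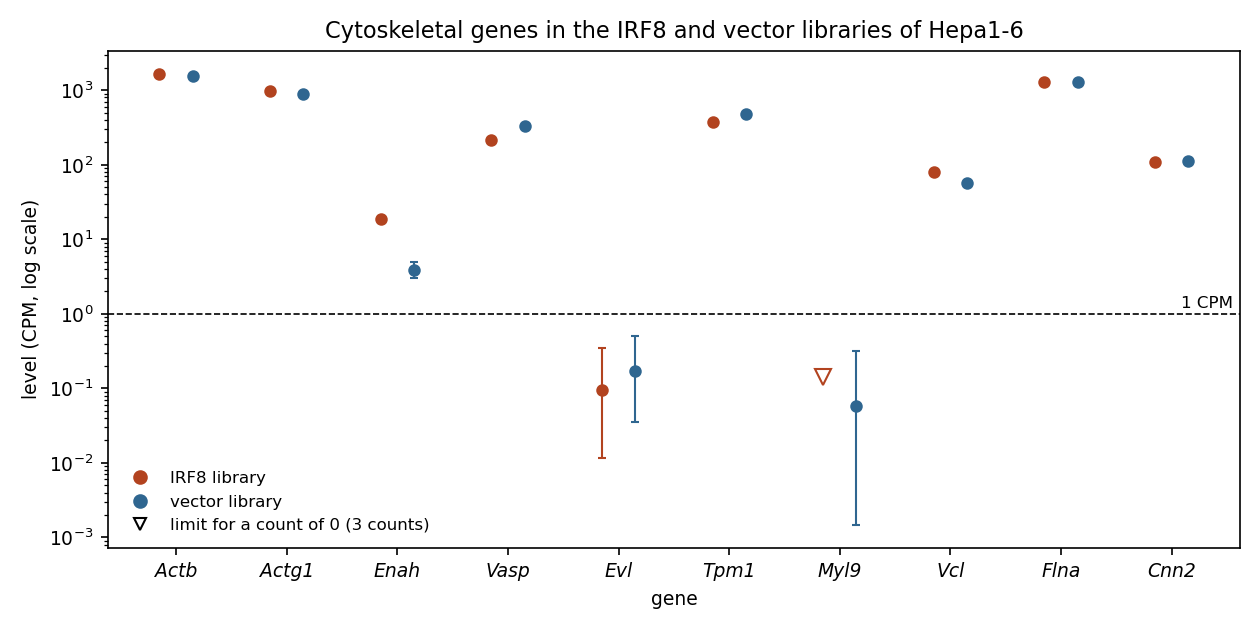
Level of each member in CPM (log axis) for IRF8 (left point) and vector (right point), with exact 95% Poisson intervals and 1 library per group; the open triangle marks the limit of 3 counts for a count of 0. Enah stands apart at 18.5 CPM for IRF8 and 3.86 CPM for vector, and Evl and Myl9 lie under 1 CPM in both.

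Within the Ena/VASP family, Enah and Vasp lay on opposite sides of 1. Enah (ENSMUSG00000022995, mm10 chromosome 1, 181896384 to 182019990, minus strand), which encodes Mena, had 387 counts with IRF8 and 67 with vector. These equal 18.5 CPM (exact Poisson 95% interval 16.7 to 20.4) for IRF8 and 3.86 CPM (2.99 to 4.90) for vector. The ratio was 4.80 (3.69 to 6.31), the 51st highest of the 12468 measured genes. None of the 13 other measured genes within 1 Mb of Enah was higher or lower by the size rule, and the highest ratio among them was 1.03. The 652 measured protein-coding genes of chromosome 1 had a median log2 ratio of 0.00.

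Vasp (ENSMUSG00000030403, chromosome 7, 19256929 to 19271817, minus strand) encodes the vasodilator-stimulated phosphoprotein, a substrate of cyclic nucleotide-dependent kinases. It had 4567 counts with IRF8 and 5833 with vector, or 218 CPM (212 to 225) and 336 CPM (327 to 345). Its ratio of 0.650 (0.625 to 0.676) lay below 1 but within the 2-fold limit, and 8.36% of the 2499 genes above 100 CPM had a lower ratio. Evl, the third family member (ENSMUSG00000021262, chromosome 12, 108554720 to 108688516, plus strand), had 2 counts with IRF8 and 3 with vector, at or under the limit of 3 counts, so no ratio is given. Nearly all counts of the family came from Vasp and Enah.

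Because Vasp is far more abundant than Enah, the sum of the family followed Vasp. The 3 genes together had 4956 counts with IRF8 and 5903 with vector, a ratio of 0.697 (0.671 to 0.724). Enah took 7.81% of those counts with IRF8 (exact binomial 95% interval 7.08 to 8.59) and 1.14% with vector (0.881 to 1.44). This share within 1 library does not depend on the scaling between libraries. Per kilobase of the gene length in the deposited table (21.452 kb for Enah and 2.617 kb for Vasp), Enah stood at 0.863 CPM per kb with IRF8 and 0.180 CPM per kb with vector, and Vasp at 83.5 and 128 CPM per kb. On that scale Enah made up 1.02% of the family with IRF8 and 0.140% with vector. The length listed for Enah joins all its annotated exons, so a cell that uses a short form has a higher level than this scale gives.

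**Figure D3:**
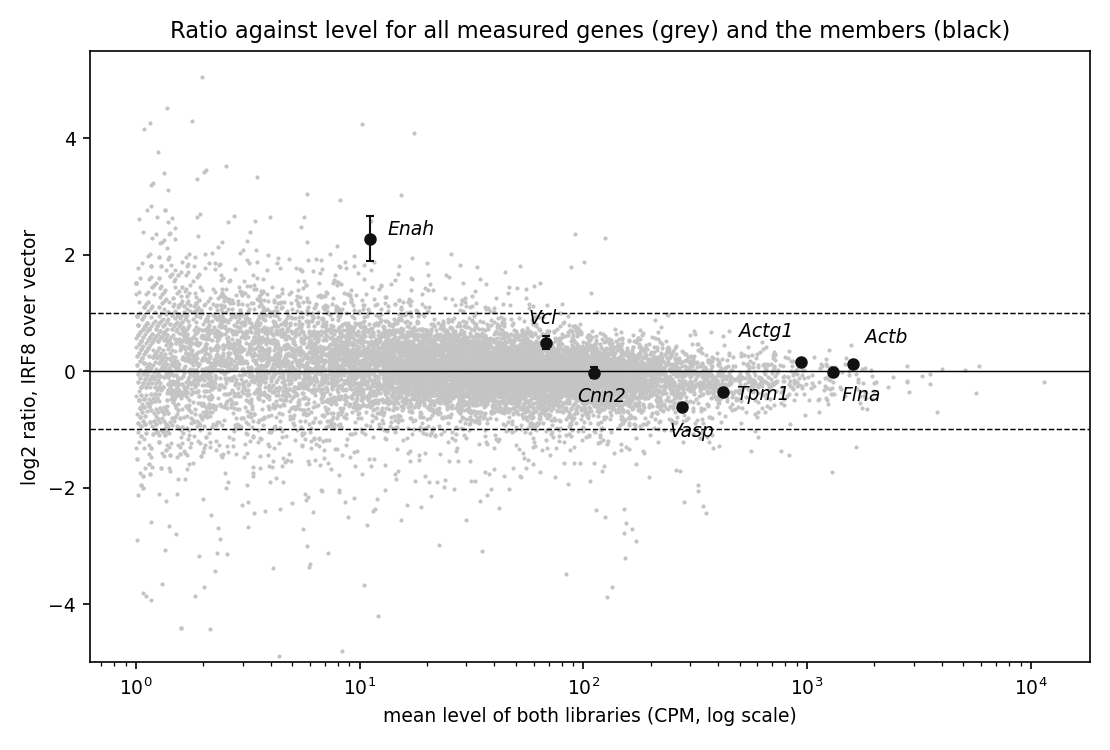
Log2 ratio (IRF8 over vector) against the mean level in CPM (log axis) for all measured genes (grey) and the 8 measured members (black, with 95% counting intervals), with dashed lines at the 2-fold limits. Enah lies above the upper line at a log2 ratio of 2.26, and the other 7 lie between -0.62 (Vasp) and 0.49 (Vcl).

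The cytoplasmic actins, the most abundant members per length, were close between the libraries. Actb (ENSMUSG00000029580, chromosome 5, 142903115 to 142906754, minus strand) had 34910 counts with IRF8 and 26593 with vector, or 1669 and 1531 CPM, a ratio of 1.09 (1.07 to 1.11). Actg1 (ENSMUSG00000062825, chromosome 11, 120345690 to 120348542, minus strand) had 20754 and 15488 counts, or 992 CPM for IRF8 and 892 CPM for vector, a ratio of 1.11 (1.09 to 1.14). Both intervals lay just above 1, and over all settings tried Actb ran from 1.09 to 1.24 and Actg1 from 1.02 to 1.26. Per kilobase, Actb stood at 623 CPM per kb with IRF8 and 572 with vector, and Actg1 at 373 and 336. Actg1 took 37.3% of the counts of the pair with IRF8 (36.9 to 37.7) and 36.8% with vector (36.3 to 37.3), with an odds ratio of 1.02 (large-sample 95% interval 0.994 to 1.05). The balance between the pair was thus not distinguishable between these libraries at this depth.

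Beta- and gamma-actin are near-identical proteins, and the start of their coding sequences shows how the genes differ. The first 60 coding bases of Actb-201 and Actg1-202 (GENCODE M21) are given with the 9 bases that differ in capitals.
Actb: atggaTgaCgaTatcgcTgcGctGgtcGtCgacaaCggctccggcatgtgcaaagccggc
Actg1: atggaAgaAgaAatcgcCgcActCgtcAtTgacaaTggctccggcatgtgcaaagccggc

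Over the whole coding sequence of 1125 bases, 997 were identical (88.6%), and the longest identical run was 62 bases. Of the 32-base words of Actb-201, 34.0% occur in a transcript at another annotated locus, and of those of Actg1-202 57.1%. The sources used here do not give how reads with several matches were counted, so the levels of both actins are uncertain. For Vasp, Evl, Tpm1, Vcl and Flna the share was 0%, and for Enah it was 1.42%. The muscle actins Acta1, Acta2, Actg2 and Actc1 were all below 1 CPM, with Acta1 the most counted at 10 with IRF8 and 9 with vector.

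Of the members tied to contraction, Tpm1 did not pass the size rule and Myl9 was near 0. Tpm1 (ENSMUSG00000032366, chromosome 9, 67022590 to 67049406, minus strand), whose product coils along the filament and gates myosin, had 7751 counts with IRF8 and 8246 with vector, or 371 and 475 CPM, a ratio of 0.781 (0.757 to 0.805). Of the other tropomyosin genes, Tpm3 had a ratio of 0.981 (0.955 to 1.01) and Tpm4 one of 1.01 (0.977 to 1.05), although 69.9% and 16.2% of their words occur elsewhere. Tpm2 had 80 and 55 counts (1.21, 0.846 to 1.74), and all 3 intervals included 1. Myl9 (ENSMUSG00000067818, chromosome 2, 156775420 to 156781658, plus strand), a regulatory light chain typical of smooth muscle, had 0 counts with IRF8 (the limit of 3 counts equals 0.143 CPM) and 1 with vector.

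Other smooth muscle genes were also near 0, with Tagln at 0 counts with IRF8 and 2 with vector, Cnn1 at 2 and 3, Acta2 at 3 and 1, and Myh11 at 4 and 4. The light chains of non-muscle cells were well counted, Myl12a at 11493 and 11509 and Myl12b at 4024 and 3202, although 31.2% and 33.6% of their words occur elsewhere. Of 15 fibroblast, stellate and smooth muscle markers, 5 were measured, and Rgs5 and Col1a1 were higher and 0 lower. Among all measured genes 4.27% were higher and 3.64% lower. The summed level of the list was 928 CPM with IRF8 and 819 CPM with vector, of which Dcn alone made 904 and 800.0 CPM, and Myocd, Lrat and Thy1 had 0 counts in both. The part of such cells in the results was not tested.

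The adhesion and crosslinking members stayed within the 2-fold limit. Vcl (ENSMUSG00000021823, chromosome 14, 20929398 to 21033676, plus strand), which encodes vinculin, the link between integrin-bound talin and actin, had 1657 counts with IRF8 and 981 with vector. This equals 79.2 CPM (75.5 to 83.1) and 56.5 CPM (53.0 to 60.1), a ratio of 1.40 (1.30 to 1.52), the highest among the members after Enah. Exons of Ap3m1 on the other strand cover 25.5% of the exon bases of Vcl, and Ap3m1 had 1269 and 794 counts. The labels name the NEBNext Ultra kit, which does not mark strand, so reads from shared bases cannot be told apart and the value of Vcl is uncertain. Flna (ENSMUSG00000031328, chromosome X, 74223461 to 74249820, minus strand), whose product crosslinks filaments into networks, had 27263 and 22766 counts, or 1304 CPM for IRF8 and 1311 CPM for vector, and a ratio of 0.994 (0.977 to 1.01). Cnn2 (ENSMUSG00000004665, chromosome 10, 79988584 to 79996062, plus strand), an actin-binding calponin, had 2311 and 1952 counts, or 111 and 112 CPM, and a ratio of 0.983 (0.925 to 1.04). The intervals of both included 1, and both ratios passed 1 with scaling by total counts (1.08 for Flna and 1.07 for Cnn2).

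The surrounding pathway was described with 12 lists of actin genes. Without the members they held 148 measured genes, of which 6 were higher and 11 lower, or 4.05% and 7.43%, with a median log2 ratio of -0.07. Among all measured genes 4.27% were higher and 3.64% lower, the shares to set beside each list below. Filament turnover genes (16 measured, median 0.11) had 1 higher and 1 lower. Pfn2, a profilin that supplies actin to Ena/VASP proteins, had 1687 counts with IRF8 and 528 with vector (2.65, 2.40 to 2.93), and the capping protein gene Capg had 225 and 493 (0.379, 0.322 to 0.445). The major profilin gene Pfn1 had a ratio of 1.18 and the cofilin gene Cfl1 one of 0.866, with 27.6% of the words of Cfl1 found elsewhere. Tmsb4x, which encodes the monomer-binding thymosin beta 4, had 1 and 2 counts.

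Genes of filament nucleation were mostly near 1. Of 19 measured genes of the Arp2/3 and WAVE list (median -0.15), 1 was higher and 0 lower, the higher one being the WAVE complex subunit gene Cyfip2 with 641 counts with IRF8 and 169 with vector (3.15, 2.65 to 3.75). None of 11 measured formins was higher or lower (median 0.02, 0.755 to 1.78). Among the partners of Ena/VASP proteins (14 measured, median -0.22), 0 were higher and 1 was lower, the nucleator gene Spire1 at 0.447 (0.401 to 0.498). The lamellipodin gene Raph1 had a ratio of 0.629 (0.580 to 0.682) and the zyxin gene Zyx one of 0.775 (0.732 to 0.821), both within the 2-fold limit.

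Myosin, crosslinker, calponin and adhesion lists gave at most 1 call each, beside 4.27% higher and 3.64% lower among all measured genes. Of 12 measured tropomyosin and myosin II genes (median -0.08), 1 was higher and 0 lower. Myh10, the heavy chain of myosin IIB, had 370 counts with IRF8 and 116 with vector (2.65, 2.14 to 3.29), while Myh9, the far more abundant heavy chain of myosin IIA, had a ratio of 0.712 (0.696 to 0.727). Among 16 crosslinkers (median 0.07), the plastin gene Lcp1 was lower at 0.268 (40 and 124 counts), with 15.7% of its words found elsewhere, and Actn1 and Actn4 had ratios of 1.07 and 0.929. Of 4 measured calponin and transgelin genes (median 0.18), 0 were higher or lower, with Cnn3 at 1.21 (26.6% of its words elsewhere). Of 26 focal adhesion genes (median -0.17), 0 were higher and 1, the adaptor gene Lims2, was lower at 0.232 (45 and 161 counts), and the talin gene Tln1 had a ratio of 1.09.

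SRF and its cofactors were described next. Srf had 1681 counts with IRF8 and 1760 with vector, or 80.4 and 101 CPM, a ratio of 0.793 (0.741 to 0.848). Mkl1 had a ratio of 0.626 (0.567 to 0.693) and Mkl2 one of 0.849 (0.753 to 0.956). The ternary complex factor gene Elk1 had a ratio of 0.723 (0.617 to 0.846). Elk3 had one of 1.03 (0.940 to 1.13) and Elk4 one of 0.942 (0.853 to 1.04). Of 9 measured genes in that list (median -0.24), 1 was higher and 1 lower. Scai, a suppressor of MRTF activity, had 248 and 71 counts (2.90, 2.22 to 3.83), and the LIM-domain cofactor gene Fhl2 had 55 and 187 (0.244, 0.177 to 0.332).

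The list of SRF target genes had 17 measured, 0 higher and 5 lower (29.4%, median -0.33). The shares over all measured genes were 4.27% higher and 3.64% lower. The 6 measured targets that are also among the 10 genes followed here, Actb, Actg1, Flna, Tpm1, Cnn2 and Vcl, had ratios from 0.781 to 1.40, and 0 of them passed the size rule. Of the 11 other measured targets, 5 were lower (median -0.98). Egr1, an immediate-early transcription factor gene, had 2303 counts with IRF8 and 10332 with vector (0.185, 0.177 to 0.194), and Fos had 90 and 343 (0.218, 0.171 to 0.276). Ctgf, a matricellular growth factor gene, had 2397 and 9898 counts (0.201, 0.192 to 0.210), Gadd45g, a stress-response gene, 486 and 1424 (0.283, 0.255 to 0.314), and Fhl2 is in this list too. Dstn, the actin-depolymerising factor gene of the list, had a ratio of 1.12. The difference between these 2 groups of targets was not tested, and the low values of Egr1, Fos and Ctgf were known when the list was drawn up.

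**Figure D4:**
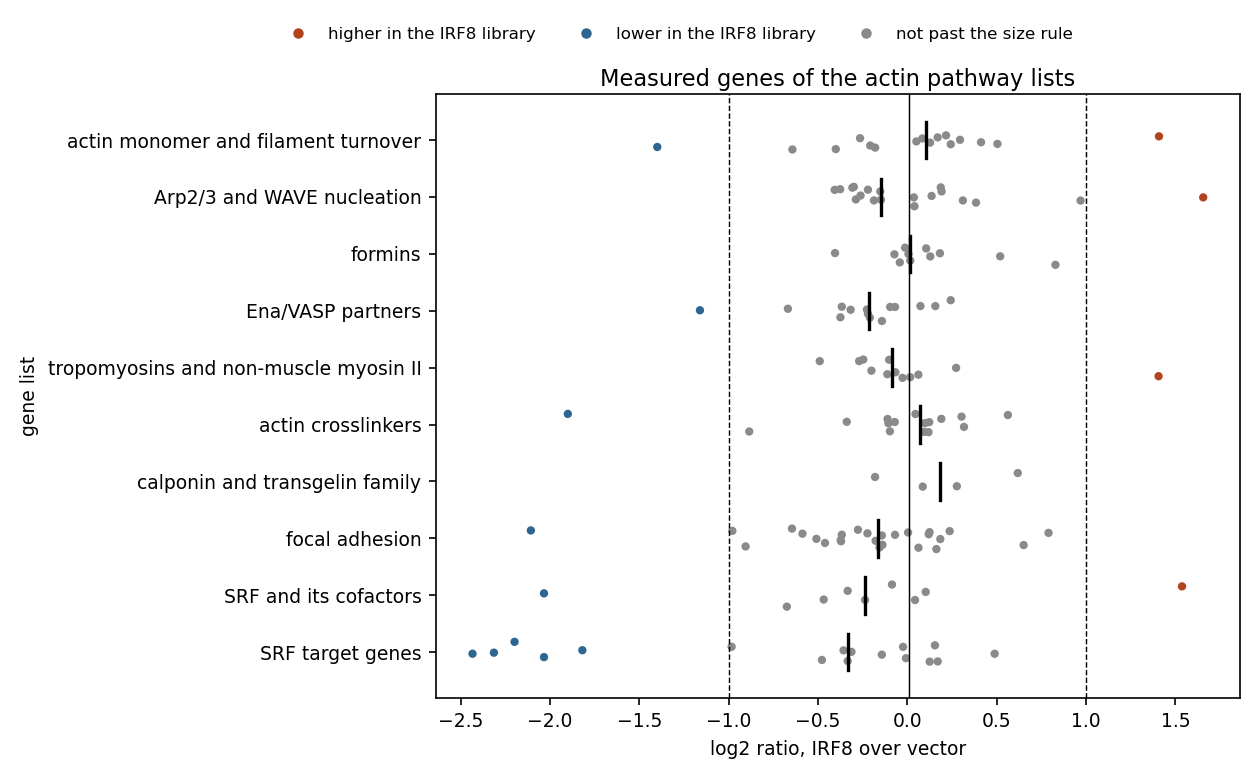
Log2 ratio (IRF8 over vector) of each measured gene in 10 actin pathway lists, coloured by the size rule, with black ticks at list medians, a solid line at the median of all measured genes and dashed lines at the 2-fold limits. The 5 lower genes of the SRF target list lie at the left, and most genes of the other lists lie between the dashed lines.

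The difference between Enah and Vasp was also set beside other gene families. In 16 families with at least 2 measured paralogs, put together after the values were seen, the paralog with the highest level per kilobase in vector cells was compared with the rest. None of the 16 most abundant paralogs was higher or lower (ratios 0.541, for Ezr, to 1.38), while 6 of the 22 others were higher and 1 was lower. The higher ones were Enah, Pfn2, Myh10, Cyfip2, Rock1 and Ssh2, and the lower one was Lims2. Calls of higher genes were also commoner at low levels in general: 12.5% of measured genes of 1 to 10 CPM were higher, 1.74% of those of 10 to 100 CPM and 0.160% of those above that. All 6 higher paralogs lay in the range of 10 to 100 CPM, which held 9 of the 22, and Lims2 lay below it, where 7.46% of genes were lower. The ranking used the vector level, which is also the denominator of the ratio. A low vector count thus favours both a place among the others and a high ratio. The pattern is a description only, and the part of level in it was not tested.

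**Figure D5:**
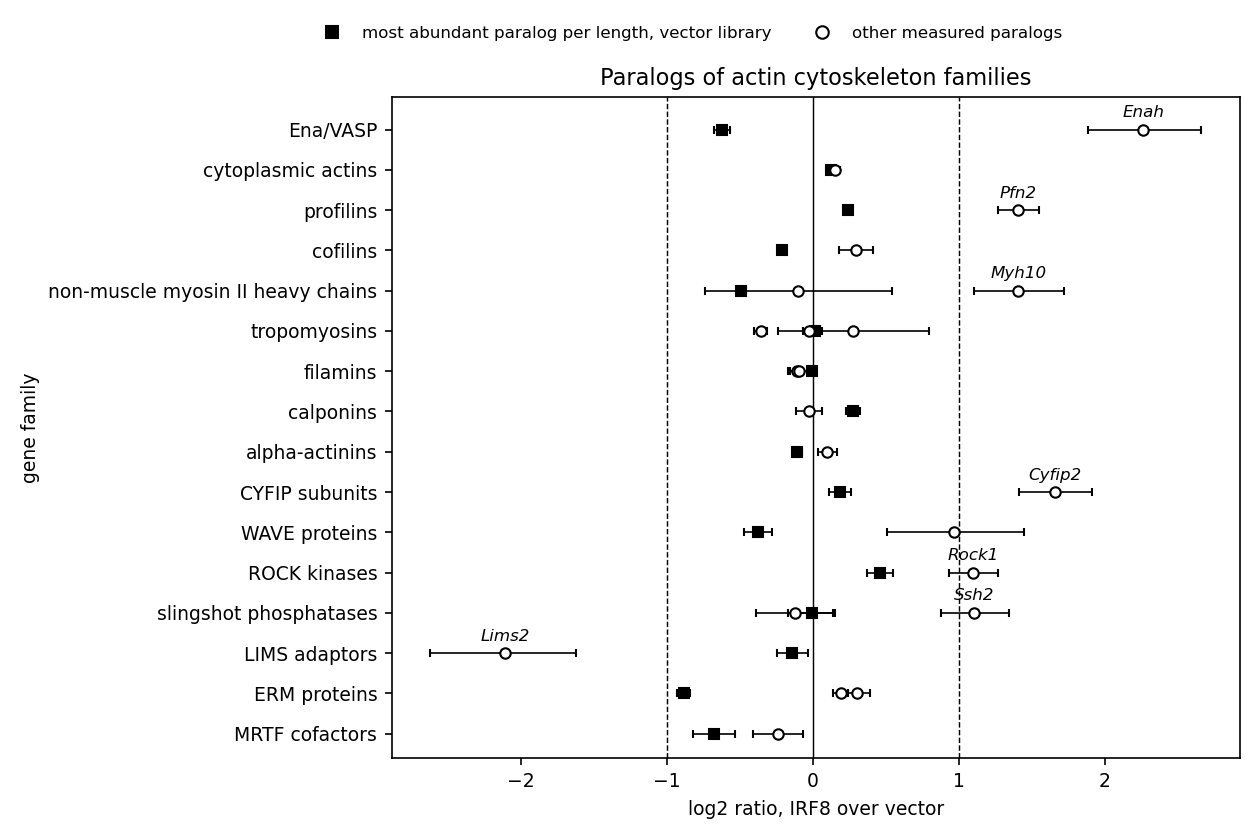
Log2 ratio (IRF8 over vector, with 95% counting intervals) for paralogs of 16 families, with the most abundant paralog per length in vector cells as a filled square and the others as open circles. Every filled square lies between the dashed 2-fold lines, and the 7 named circles lie outside them.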

How the data were processed

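RNA-seq of 2 stable Hepa1-6 lines was used, 1 library each, grouped by the lentivirus in the labels. The authors deposited raw counts for each gene as whole numbers. HISAT2 2.0.5, featureCounts 1.5.0-p3 and the build mm10 are named by the submitters' processing notes; the settings for strand and multiple matches and the annotation were not given in the sources used here. Gene lengths and coordinates are those of the deposited table, and the spans of all 10 members equal those of GENCODE M21. CPM were computed here with TMM factors (1.04 for IRF8 and 0.958 for vector; edgeR 4.0.16, R 4.3.3), then exact Poisson intervals for levels and Clopper-Pearson intervals at 95% for ratios. A count of 0 was given a limit of 3 counts. The intervals cover counting error of reads only. Reads copied by PCR are not separate molecules, so the intervals can be too narrow for a count of molecules. With 1 library per group no test was run. The size rule was checked on simulated counts that held counting error alone, so that check says nothing of the spread between cultures. The remaining steps ran in Python 3.11.15 (scipy 1.17.1, statsmodels 0.14.6, pandas 2.3.3, matplotlib 3.10.9, numpy 2.4.6).

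Named genes were the members, a set of pathway genes fixed by name and every list gene past the size rule; others, among them Ezr, Ap3m1, the muscle genes and Myl12a, were named after their values were seen. The members and lists were chosen with earlier results of these data known. Words of 32 bases were taken from each gene's longest coding GENCODE M21 transcript, and copies without annotation were not searched. Protein sequences were not used here. The alternatives were 3 other scalings (total counts, DESeq2 1.42.0 size factors, upper quartile), 2 filters, a fold of 1.5, a 99.9% interval, protein-coding genes alone and removal of the expression trend. The values of 1 pathway list and of 1 further gene are not reported here.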

Additional observations from a re-analysis of the deposited data

How the results depend on the processing

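No paired analysis was possible because each group had 1 library, and no library could be left out. Enah stayed the 1 higher member in every setting, with ratios from 4.42 to 5.22. A fold of 1.5 made Vasp the 1 member lower, and gave 11 higher and 20 lower pathway genes, and 1302 and 1175 of all genes. With no filter all genes gave 873 higher and 800 lower, and with a mean of at least 5 CPM 221 and 266. These settings change by construction which genes are counted. Of the list counts, 224 stayed within 1.5 times and 16 did not, and of the member ratios under settings that can change a ratio, 29 moved by less than their counting interval and 19 by more; the cause was not tested. Scaling by total counts moved the median log2 ratio of all genes to 0.13, and calls were 66.1% higher ones, against 54.0% with TMM and 41.6% with the expression trend removed. The Vasp ratio ran from 0.650 to 0.715 and that of Vcl from 1.40 to 1.53. Flna ran from 0.904 to 1.13 and Cnn2 from 0.983 to 1.10, on both sides of 1. Removing each chromosome's median was chosen after seeing the data. The Enah share of its family was 7.81% (IRF8) and 1.14% (vector) in raw counts, and 1.64% and 0.226% per longest coding transcript, a length also chosen after seeing the data. Counting depth limits Evl and Myl9, which had at most 3 counts.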

Other observations

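The genes around Vasp and Vcl were also counted. Within 1 Mb of Vasp, 46 other genes were measured, with 1 higher and 5 lower (Pvr, Foxa3, Fosb, Pglyrp1 and Gm44698) and a median log2 ratio of -0.29, against -0.07 for the measured protein-coding genes of chromosome 7. Within 1 Mb of Vcl, 30 were measured, with 1 higher (Gng2) and 1 lower (Dusp13) and a median of -0.07. Over all measured genes the shares were 4.27% higher and 3.64% lower. Chromosome medians differed among the members' chromosomes, from -0.16 on chromosome 10 (Cnn2) to 0.15 on chromosome 9 (Tpm1).

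Among the ERM proteins, which tie filaments to the membrane, Ezr had 7433 counts with IRF8 and 11400 with vector (0.541, 0.526 to 0.558), whereas Msn had a ratio of 1.14 (1.10 to 1.18) and Rdx one of 1.23 (1.16 to 1.31). None of these passed the size rule. Tmsb4x, with 1 and 2 counts, has 0% of its words in another annotated transcript, while Tmsb10 had 25181 and 19737 counts, with 52.2% of its words found elsewhere.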
